A study of Mus musculus with 7 samples.

Results

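The enzymes of the urea cycle and of glutamine turnover were followed across 7 mouse tissues by RNA-Seq: Nags, Cps1, Otc, Ass1, Asl, Glul and Gls2. These 7 genes were listed by name for their function, with earlier results of these data known. Measured levels entered the rule only where a name had several loci, of which the highest was taken. All 7 were found among the 50226 gene names of the deposited expression table, 21341 of which are protein-coding. Each had at least 1 FPKM (a level scaled for the length of the transcript and for the size of the library) in 1 tissue or more. The mice were wild-type animals aged 36 weeks on the diet labelled NCD, the control diet. Their strain is labelled C57BL/6 and described by the authors as C57BL/6N. The tissues were liver, kidney, cortex and skeletal muscle (muscle), together with the visceral, the subcutaneous and the brown adipose depot, called VAT, SCAT and BAT. No allele, transgene or treatment distinguished the groups. There was 1 library per tissue, so no difference between tissues has a replicate check, no p-value was computed, and every fold below compares single libraries.

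The urea cycle disposes of ammonia, which is toxic to the brain, by building it into urea. In mitochondria of periportal hepatocytes, Nags makes N-acetylglutamate, the obligate activator of Cps1, Cps1 makes carbamoyl phosphate, and Otc joins it to ornithine as citrulline. In the cytosol, Ass1 and Asl turn citrulline into arginine, from which urea is released and ornithine regained. Kidney proximal tubules use Ass1 and Asl differently, as the last steps of arginine supply to the body from circulating citrulline. Gls2, the liver-type glutaminase, releases ammonia from glutamine, and Glul, glutamine synthetase, captures ammonia as glutamine in perivenous hepatocytes, astrocytes, muscle and fat.

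Promoter sequences of Nags, Otc, Ass1 and Glul were in the RefSeq table used here (GRCm38.p6). Those of Cps1, Asl and Gls2 were not. They are shown because they set 2 genes with a steep liver profile (Nags, Otc) beside 2 that were above 1 FPKM in every tissue (Ass1, Glul). The stretches lie just before the start site, on the plus strand, at chr11:102145263-102145512 for Nags, chrX:10252055-10252304 for Otc, chr2:31470020-31470206 for Ass1 and chr1:153899679-153899928 for Glul. The Ass1 stretch stops where the annotated first exon begins. Capitals mark CpG dinucleotides.
Nags: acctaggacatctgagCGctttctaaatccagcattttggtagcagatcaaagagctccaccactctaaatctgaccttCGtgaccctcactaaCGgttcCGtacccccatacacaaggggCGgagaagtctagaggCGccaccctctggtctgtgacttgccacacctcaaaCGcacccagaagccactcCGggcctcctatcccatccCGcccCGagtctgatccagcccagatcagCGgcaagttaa
Otc: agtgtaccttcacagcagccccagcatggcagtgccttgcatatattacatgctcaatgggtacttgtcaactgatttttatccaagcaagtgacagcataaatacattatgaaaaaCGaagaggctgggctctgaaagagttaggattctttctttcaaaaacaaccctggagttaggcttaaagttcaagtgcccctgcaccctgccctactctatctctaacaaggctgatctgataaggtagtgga
Ass1: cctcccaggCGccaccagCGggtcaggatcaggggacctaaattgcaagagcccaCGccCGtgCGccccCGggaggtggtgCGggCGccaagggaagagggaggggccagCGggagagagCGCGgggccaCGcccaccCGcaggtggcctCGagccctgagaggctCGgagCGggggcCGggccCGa
Glul: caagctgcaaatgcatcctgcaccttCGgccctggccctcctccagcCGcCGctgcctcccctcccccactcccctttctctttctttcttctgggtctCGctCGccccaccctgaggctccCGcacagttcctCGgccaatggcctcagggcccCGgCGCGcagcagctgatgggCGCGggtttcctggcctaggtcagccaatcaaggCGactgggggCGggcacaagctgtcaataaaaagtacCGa

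Otc stood apart among the 4 in base composition. Its 250 bases held 1 CpG, an observed-to-expected ratio of 0.0843, and 43.6% G and C. Nags, which had the same kind of tissue profile, held 11 CpGs, with a ratio of 0.613 and 55.6% G and C. Over the same 250 bases before the RefSeq start, Ass1 held 23 CpGs (ratio 0.644, 75.6% G and C) and Glul 15 (ratio 0.601, 64.8%). The median of 32841 mouse promoters was a ratio of 0.374 and 52.4% G and C. Both strands were searched for TTGCNNAA (C/EBP), CAAAGTCCA (HNF4) and TATAAA (the core promoter element), which 9.57%, 0.384% and 12.4% of all promoters hold. None of these letters was in the 4 windows. GGGCGG (GC box), held by 32.7% of promoters, was found 2 times for Nags and 1 time each for Ass1, outside the stretch printed, and Glul. CCAAT, held by 33.9%, was found 2 times, both for Glul, and no 2 of the matches overlapped.

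Most tissues carried the markers of their label, but several libraries also held transcripts of other cell types. All 8 kidney tubule markers reached 44.1 FPKM or more in kidney, and 1 of the 8 passed 1 FPKM in liver (Kap, 9.54). All 6 hepatocyte markers passed 1 FPKM in VAT, with a summed level of 590 FPKM against 11115 in liver, where Alb has no usable value, and 2.90 to 340 in the remaining tissues. Cyp2e1 (295) and Alb (253) made up most of the VAT sum, and Cyp2e1 (331) most of the kidney sum of 340. VAT also held epididymis genes (4 of 4 markers, Lcn5 at 1119 FPKM) and SCAT held lymphocyte and pancreatic acinar genes (5 of 5 each, Ms4a1 at 50.6 and Ctrb1 at 35.9 FPKM). The 4 skeletal muscle markers in the table passed 1 FPKM in each of the 3 fat depots, with summed levels of 593 FPKM in BAT, 95.1 in SCAT and 84.3 in VAT. All 4 adipocyte markers passed 1 FPKM in muscle, with a summed level of 49.9 FPKM, against 415 in SCAT, 1071 in VAT and 1419 in BAT. In whole tissue, fewer cells of a type and less RNA per cell cannot be told apart.

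**Figure D1:**
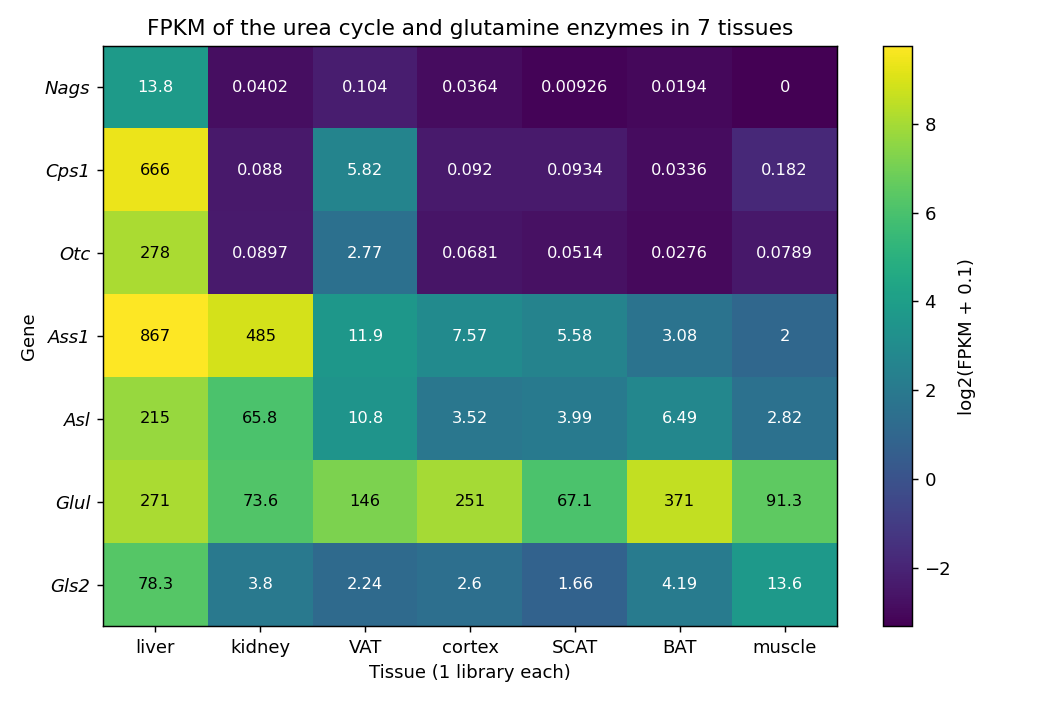
Levels of the 7 enzymes in the 7 tissues. Each cell gives the FPKM of 1 gene (rows) in 1 library (columns), and colour gives log2(FPKM + 0.1). Liver held the highest level of 6 genes, Ass1 and Asl were also high in kidney, and Glul was at 67.1 FPKM or more everywhere.

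In liver lay the highest level of 6 of the 7 genes, the exception being Glul. A gene was called enriched in a tissue when it had at least 1 FPKM there and lay at least 4-fold above each of the other tissues on the log2(FPKM + 0.1) scale. By this rule 4 of the 7 were enriched in liver (Nags, Cps1, Otc and Gls2) and none in any other tissue. For comparison, 3.38% of 14898 expressed protein-coding genes were enriched in liver. The set was named for pathways of liver, so a high count there was likely from the choice and is only described. Without the VAT and SCAT libraries the count was again 4. Leaving out tissues cannot remove a call under this rule, so this count is no check on those libraries.

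Positions below are those of the GENCODE genes, since the table gives a gene the bounds of a wider region that it shares with neighbours listed with values of their own (187 kb for Nags and 171.6 kb for Glul). The 3 mitochondrial steps that start the cycle had the steepest profiles. Nags, on chromosome 11 (GRCm38, 102145513 to 102149477, plus strand), was at 13.8 FPKM in liver. Its levels elsewhere were 0.104 in VAT, 0.0402 in kidney, 0.0364 in cortex, 0.0194 in BAT and 0.00926 FPKM in SCAT, and it is listed at 0 in muscle. In liver, its level was the lowest of the 7 enzymes, at rank 3308 of 21314 protein-coding genes. Cps1, by contrast, ranked 72 of 21314.

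Cps1 (chromosome 1, 67123026 to 67231259, plus strand) was at 666 FPKM in liver. It was at 5.82 in VAT, 0.182 in muscle, 0.0934 in SCAT, 0.0920 in cortex, 0.0880 in kidney and 0.0336 FPKM in BAT. Otc (chromosome X, 10252305 to 10321024, plus strand) followed the same pattern at a lower level, with 278 FPKM in liver. It was at 2.77 in VAT and between 0.0276 (BAT) and 0.0897 FPKM (kidney) in the other tissues. VAT was thus second for both, 114-fold and 100.2-fold below liver, and the 5 remaining tissues all lay below 1 FPKM. Their order there rests on values far below 1 FPKM and is not read further.

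Hepatocyte markers were also present in VAT. VAT held 0.754% of the liver level of Nags, 0.874% of that of Cps1 and 0.998% of that of Otc, and 1.37% and 5.01% of those of Ass1 and Asl. The hepatocyte markers Apoa1, Fgb, Fgg and Ahsg, which encode plasma proteins, stood in VAT at 0.701%, 0.559%, 0.659% and 0.585% of liver, and Cyp2e1 at 6.41%. The shares of Nags, Cps1 and Otc lay between those of the plasma protein genes and that of Cyp2e1, and Asl was nearest to Cyp2e1. The part of hepatocyte RNA in the VAT values was not tested.

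**Figure D2:**
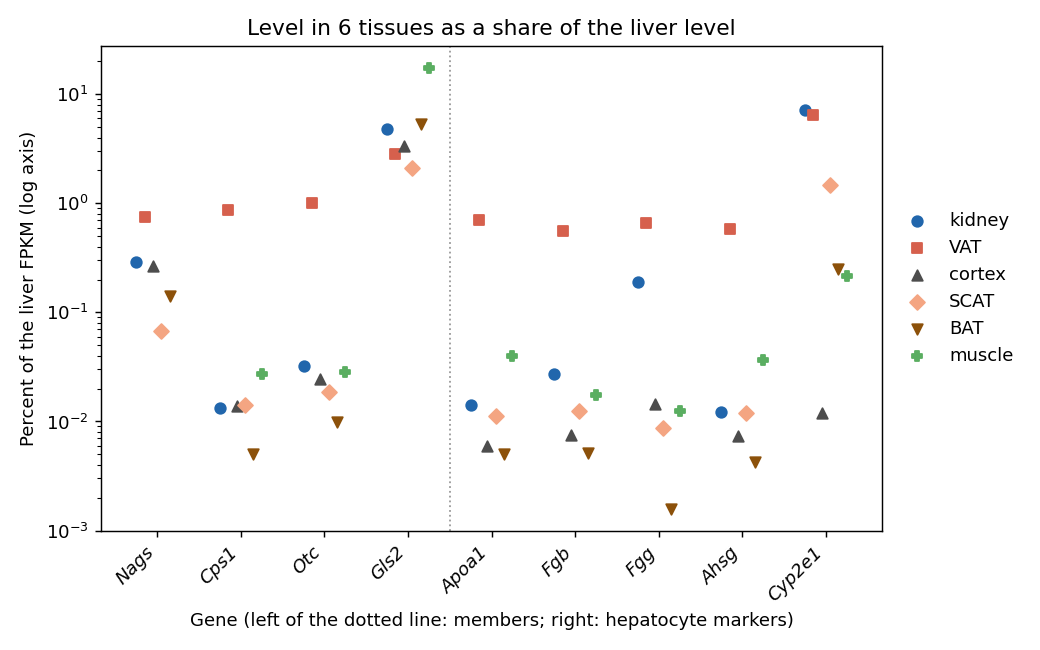
Level in 6 tissues as a percentage of the liver level (log axis) for the 4 liver-enriched enzymes and 5 hepatocyte markers. Each point is 1 library, and Nags in muscle, listed at 0, is not drawn. VAT lies at 0.754 to 0.998% for Nags, Cps1 and Otc and at 0.559 to 0.701% for Apoa1, Fgb, Fgg and Ahsg, whereas Gls2 reaches 17.4% in muscle.

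Ass1 and Asl, the cytosolic steps that make arginine, were high in 2 tissues. Ass1 (chromosome 2, 31470207 to 31520672, plus strand), argininosuccinate synthase, was at 867 FPKM in liver and 485 in kidney. It was at 11.9 FPKM in VAT, with cortex (7.57), SCAT (5.58), BAT (3.08) and muscle (2.00) below it. Liver and kidney were within 1.79-fold of each other, and kidney lay 40.8-fold above VAT, the next tissue. Asl (chromosome 5, 130011258 to 130029247, minus strand), argininosuccinate lyase, was at 215 FPKM in liver and 65.8 in kidney. Its other levels were 10.8 in VAT, 6.49 in BAT, 3.99 in SCAT, 3.52 in cortex and 2.82 FPKM in muscle. The Ass1 and Asl profiles had a Pearson r of 0.96 over the 7 tissues on the log2(FPKM + 0.1) scale, given as a description, since the points are single libraries. Unlike the mitochondrial enzymes, both passed 1 FPKM in all 7 tissues.

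Gls2 (chromosome 10, 128194457 to 128210004, plus strand) was enriched in liver with a shallower profile than the mitochondrial cycle genes. It was at 78.3 FPKM in liver and 13.6 in muscle. Its further levels were 4.19 in BAT, 3.80 in kidney, 2.60 in cortex, 2.24 in VAT and 1.66 FPKM in SCAT. Unlike Nags, Cps1 and Otc, Gls2 was above 1 FPKM in all 7 tissues. It was enriched in liver by the 4-fold rule but not with an 8-fold rule, because muscle lay 5.74-fold below liver.

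Glul (chromosome 1, 153899944 to 153909723, plus strand) was abundant in every tissue. It was at 371 FPKM in BAT, 271 in liver, 251 in cortex, 146 in VAT, 91.3 in muscle, 73.6 in kidney and 67.1 in SCAT, a range of 5.54-fold. BAT led under every scaling tried, whereas liver and cortex, 1.08-fold apart, changed places under median ratio and upper quartile scaling, and SCAT then moved above muscle and kidney. The BAT library also held skeletal muscle genes, and Glul was 4.07-fold lower in muscle than in BAT. Among all protein-coding genes Glul ranked 33 of 21335 in cortex, its highest rank. All 6 astrocyte markers, 1 of which is Glul itself, passed 1 FPKM in cortex. Among them Gfap, the astrocyte filament gene, was enriched in cortex at 91.5 FPKM, whereas Aldh1l1 was lower in cortex (8.04 FPKM) than in liver (144) and kidney (89.6). Glul exceeded Gls2 in each of the 7 tissues, by 3.46-fold in liver, 6.69-fold in muscle, 19.4-fold in kidney and 40.5 to 96.6-fold in the fat depots and cortex.

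Kidney arginine synthesis was compared with that of liver. Ass1 and Asl were at 65.8 FPKM or more in both organs, and Nags, Cps1 and Otc were at 0.0897 FPKM or less in kidney. Under a rule of at least 4-fold on the log2(FPKM + 0.1) scale and at least 1 FPKM in the higher tissue, 4 of the 7 enzymes were higher in liver than in kidney, where 8.19% of 11940 genes expressed in either tissue were. None of the 7 was higher in kidney than in liver, where 10.2% of the same genes were. These counts, too, only describe a chosen set. The log2 difference, liver minus kidney, was 11.79 for Cps1, 10.52 for Otc, 6.63 for Nags and 4.33 for Gls2. With a pseudocount of 1 or 0.01 in place of 0.1, it ranged from 9.26 to 12.73 for Cps1, 8.0 to 11.45 for Otc and 3.83 to 8.11 for Nags. At 0.1, the difference was 1.88 for Glul, 1.71 for Asl and 0.84 for Ass1. Over the 11940 genes the median was 0.03, with quartiles of -0.608 and 0.583. Glul and Asl passed a 2-fold but not the 4-fold rule.

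The steps that make citrulline were low in kidney, while Ass1 ranked 44 of 21337 protein-coding genes there and 53 of 21314 in liver. Asl differed more between the tissues than Ass1 did, and the ratio of Ass1 to Asl was 4.03 in liver and 7.37 in kidney.

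Genes that use arginine or ornithine were also compared. Of 11 such genes, 9 of which reached 1 FPKM in liver or kidney, 2 were at least 4-fold higher in liver (Agmat and Oat), 1 in kidney (Gatm) and 8 in neither, against 8.19% and 10.2% of all expressed genes in the liver and the kidney direction. Gatm, which makes guanidinoacetate from arginine as the first step of creatine synthesis, was at 102 FPKM in kidney and 2.98 in liver, and it was enriched in kidney, with cortex next at 10.4. In kidney its level was 0.210 times that of Ass1. Oat, ornithine aminotransferase, was at 450 FPKM in liver, 94.9 in muscle and 38.4 in kidney. Agmat, annotated as agmatinase, was at 48.1 FPKM in liver and 0.342 in kidney. Odc1, which makes putrescine from ornithine, was at 66.2 FPKM in kidney and 17.6 in liver, just short of 4-fold.

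**Figure D3:**
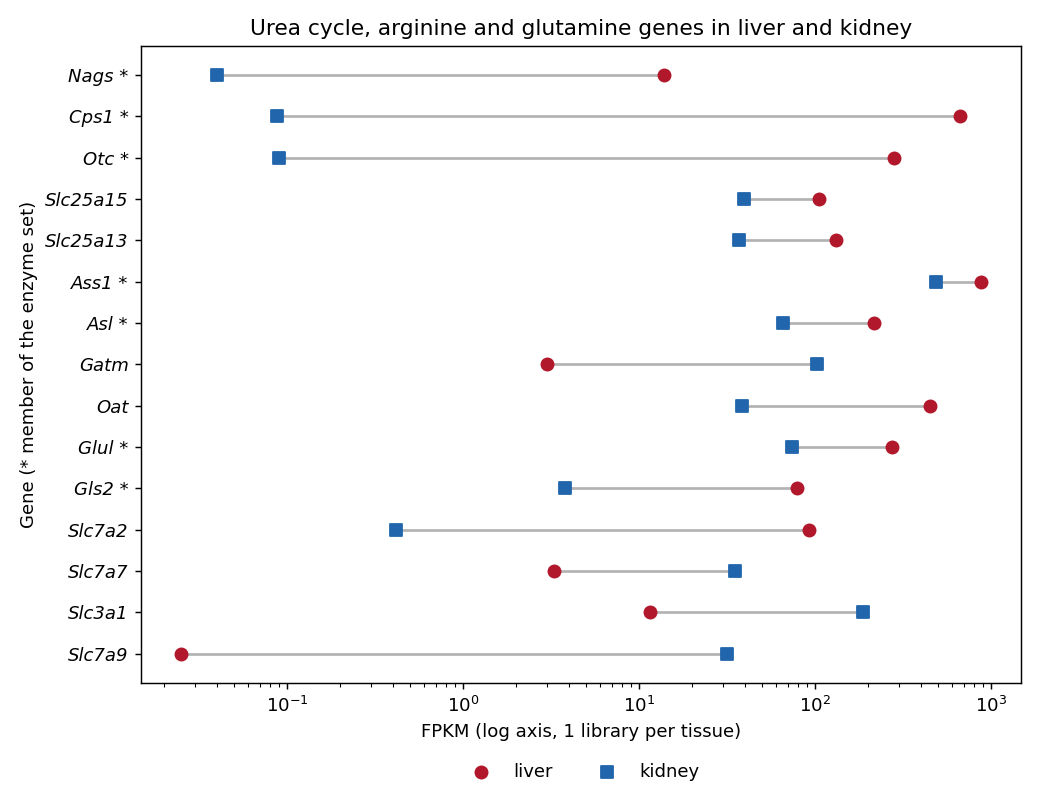
Liver (circles) and kidney (squares) levels of the 7 enzymes and of 8 carriers, partner enzymes and transporters. Each point is the FPKM of 1 library on a log axis, and a line joins the 2 values of a gene. Ass1 and Asl are high in both tissues and higher in liver, by 1.79-fold and 3.27-fold. Nags, Cps1 and Otc are far higher in liver, and Gatm, Slc7a7, Slc3a1 and Slc7a9 are higher in kidney.

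Of the mitochondrial carriers of the cycle, Slc25a15 and Slc25a13 were expressed in both organs. Slc25a15, the ornithine and citrulline exchanger, was at 105 FPKM in liver and 39.4 in kidney, while Otc was at 0.0897 FPKM in kidney. Slc25a13, the aspartate and glutamate carrier citrin, was at 131 and 36.8 FPKM, and its isoform Slc25a12 (aralar) was enriched in muscle at 194 FPKM. Of the 6 carrier and carbonic anhydrase genes listed, Car5a was not analysed here. Car5b was at least 4-fold higher in kidney (31.0 FPKM against 0.997) and the other 4 were in neither class, among them Slc25a2, a second ornithine carrier, which is listed at 0 in both organs. Over all expressed genes 10.2% were higher in kidney, so 1 gene of 5 says little of the list.

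Amino acid transporters were found on both sides. Of 16 genes, 12 of which reached 1 FPKM in liver or kidney, 4 were at least 4-fold higher in liver, 6 in kidney and 6 in neither, where 8.19% and 10.2% of all expressed genes were higher in liver and in kidney. Slc7a2, a cationic amino acid transporter that takes up arginine, was at 91.5 FPKM in liver and 0.414 in kidney. Slc38a3, a glutamine transporter, and Slc38a4, of the same family, were at 337 and 312 FPKM in liver and 27.4 and 0.629 in kidney. Slc1a2, a glutamate transporter, was at 35.6 in liver and 0.681 in kidney. On the kidney side were the subunits of the exchangers that move cationic amino acids across tubule cells, Slc7a9 (31.5 FPKM against 0.0251 in liver), Slc3a1 (187 against 11.5) and Slc7a7 (35.0 against 3.29). Slc6a19, a carrier of neutral amino acids, was at 52.4 and 0.0957 FPKM, and Slc7a8 and Slc1a5 were the other 2. Of the 2 ammonium transporters, Rhcg was at 12.9 FPKM in kidney and is listed at 0 in liver, and Rhbg, whose locus is shared with Gm38392 and Tsacc, was at 9.38 and 2.96 FPKM.

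Enzymes of liver that release nitrogen from amino acids were listed as known liver enzymes, so their direction was fixed by the choice and is only described. Of these 8 genes, 6 were at least 4-fold higher in liver and enriched there (Hal, Sds, Tat, Tdo2, Hpd and Agxt), none was higher in kidney, and Gldc and Asrgl1 were in neither class. Tdo2, which opens the tryptophan ring, was at 1654 FPKM in liver and 3.09 in kidney. Hal, histidine ammonia-lyase, was at 91.0 and 0.00788 FPKM. Of 8 other glutamine and glutamate enzymes, Gpt and Gpt2, the alanine aminotransferases, were at least 4-fold higher in liver (90.0 against 5.87 and 154 against 22.1 FPKM). Asns was so in kidney, and 5 were in neither class, among them Glud1, glutamate dehydrogenase, at 465 and 276 FPKM. Of 6 genes of proline and ornithine interconversion, Prodh2 was higher in liver (58.9 against 13.6 FPKM), none was higher in kidney and 5 were in neither class. For the glutamate and the proline genes, these counts are to be read against the same 8.19% and 10.2%. These 7 lists were assembled by function with earlier results of these data known, and their counts are descriptions.

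The genes with profiles most like those of the enzymes were sought among 8038 other protein-coding genes that reached 10 FPKM in a tissue, by Pearson's r of log2(FPKM + 0.1) over the 7 tissues. For the liver-enriched cycle genes the 3 nearest were other genes with steep liver profiles: Urad, Serpina11 and Serpina9 for Nags (the last 2 share 1 locus and its values), Mup3, Mup14 and Ces1c for Cps1, and Cyp2c29, Fgb and Mug2 for Otc. Their r lay at 0.998 to 0.999, and 18 to 61 genes per enzyme reached 0.99, so these places are shared with many genes. The Mup genes are near-identical copies whose reads may be split between them. Ass1 was nearest to Bhmt2 (r = 0.9898), Cnn3 and Acnat1, which like it were high in liver and kidney. Asl was nearest to Sardh (r = 0.995), an enzyme of sarcosine breakdown at 82.3 FPKM in liver and 27.1 in kidney, then to Gchfr and Fpgs.

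Gls2 was nearest to Spryd4 (r = 0.981), then to Oat and Cnot1. Spryd4 overlaps Gls2 on the opposite strand and stood at 11.5 to 31.8% of the Gls2 level in the 7 tissues, so the likeness of this pair cannot be told apart from reads assigned to the wrong strand. Glul was nearest to Amn1 (r = 0.905), Lsm1 and Xiap. No candidate reached 0.99 for Ass1, Glul or Gls2, and 1 did for Asl.

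A second locus under the same gene name, which by the order of the table lies on the opposite strand, was listed for 3 of the 7 enzymes. For Cps1 it was at 54.1 FPKM in liver, 8.12% of the locus used. For Ass1 it was at 7.27 FPKM in liver and 3.19 in kidney, 0.839% and 0.657%, and for Asl at 10.3 and 2.78 FPKM, 4.80% and 4.22%. In liver, the share was thus highest for Cps1 and lowest for Ass1. Reads from the opposite strand and transcripts of their own cannot be told apart here.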

How the data were processed

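RNA-Seq of 7 tissues was analysed, with 1 library per tissue. Per the labels, the authors depleted total RNA of rRNA and made strand-marked paired-end libraries. The submitters' processing notes name Bowtie2 2.2.9, STAR 2.6.0c, Cufflinks 2.2.1 and Cuffdiff on GRCm38. The values used are the FPKM that the authors deposited in Cuffdiff's gene table of 94339 loci and 21 comparisons. Its fold changes, test statistics and p-values were not used. It holds no fragment counts, so depth and precision are unknown.

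The 151 loci with status FAIL were left out, zeros with status LOWDATA were treated as missing, and the locus with the highest FPKM stood for each name. Strand was read from table order and positions from GENCODE M21 of GRCm38. Levels were compared as log2(FPKM + 0.1), which understates differences of low genes. All 7 enzymes are named, and some genes are not reported here. Listed partner genes are named by the 4-fold rules, except Odc1, Glud1, Rhbg, Slc1a3, Slc25a2, Slc25a13, Slc25a15, Gldc and Asrgl1, chosen after their values were seen, and the 3 nearest profiles are named per enzyme. Members and lists were chosen with earlier results of these data known. The fold rules were run on simulated levels with differences far above the 4-fold limit. That run checks the code and says nothing of the error of single libraries or of very low levels. Python 3.11.15, pandas 2.3.3 and NumPy 2.4.6 were used.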

Additional observations from a re-analysis of the deposited data

How the results depend on the processing

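The 3 counts stayed within 1.5 times their values under all alternatives run (other pseudocounts, scalings, minimum FPKM, fold rules, choices of locus, and handling of FAIL and LOWDATA values). Several of these could not change the counts. No locus of the 7 has status FAIL, and the liver-enriched genes were at 13.8 FPKM or more in liver, above each minimum tried. Taking the locus that overlaps the annotated gene most returned the same values for all 7. The count enriched in liver stayed between 3 and 5 of 7, with Asl joining under a 2-fold rule and Gls2 leaving under an 8-fold rule. The count at least 4-fold higher in liver than in kidney stayed between 4 and 6, with Asl and Glul joining at 2-fold, and the count higher in kidney was 0 in each. Of 42 recomputed liver minus kidney log2 differences, 36 moved by less than 1.5-fold and none changed sign. The 6 that moved more came from the pseudocount: with 1, Nags was at 3.83, Cps1 at 9.26 and Otc at 8.0, and with 0.01, Nags was at 8.11, Cps1 at 12.73 and Otc at 11.45. The size of these folds thus depends on the pseudocount, since their kidney levels are below 0.1 FPKM. Median ratio scaling shifted libraries by -0.40 (SCAT) to 0.26 (muscle) on the log2 scale, and liver and kidney by 0.00 and 0.03. With 1 library per tissue no replicate could be left out. No paired analysis was possible because no test was run and each group holds 1 sample. Depth is unknown, so the counting error of levels below 1 FPKM cannot be given.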

Other observations

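Other genes of glutamate and glutamine handling were highest outside liver and kidney. In cortex, Gad1 and Gad2, which make the transmitter GABA from glutamate, were at 133 and 27.0 FPKM and enriched there. The glutamate transporters Slc1a2 and Slc1a3, which clear the transmitter in brain, were highest in cortex, at 93.6 and 32.0 FPKM, though below the 4-fold rule over liver and VAT. In the 3 fat libraries, Slc1a5, a transporter of neutral amino acids including glutamine, was at 89.5 (VAT), 58.1 (SCAT) and 57.9 FPKM (BAT), against 11.3 FPKM or less in the other tissues. Asns, which takes nitrogen from glutamine to make asparagine, was at 32.6 FPKM in BAT, 24.2 in cortex and 0.418 in liver. In muscle, Nos1, the neuronal nitric oxide synthase and an arginine user, was at 18.0 FPKM and enriched there. These values are from single libraries and were not tested.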
